A study of Caenorhabditis elegans with 2 samples.

Results

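The genes rpr-1, mrpr-1 and srpr-2.1 of *Caenorhabditis elegans*, whose names mark them as the RNA genes of RNase P, RNase MRP and the signal recognition particle (SRP), are 3 of 46890 annotated nuclear genes. They were selected on the signal and rank of a binding peak of the nuclear hormone receptor NHR-111 at each of them, so their presence in the peak list, their ranks and their peak signals are a description and were not tested. Every interval whose summit lay within 1000 bp of one of the genes was taken from 4 deposited lists, which gave 16 intervals. There were 3 in the thresholded list, 5 in the pooled list, 4 in the list of replicate 1 and 4 in the list of replicate 2. The 3 thresholded intervals are also in the pooled list, which was made from both replicates, so the 16 are not separate peaks. Of all annotated genes, 2.76% had a thresholded summit as near.

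The data were chromatin immunoprecipitation and sequencing of whole L4 larvae, 48 h old and of both sexes, from animals starved as L1 larvae after bleaching. The strain, OP569, carries the mutation unc-119(tm4063) and wgIs569, a transgene that holds unc-119(+) and nhr-111 joined to TY1, EGFP and 3xFLAG tags, and sonicated chromatin was precipitated with an antibody to GFP. There was a single group, of 2 biological replicates, and precipitates from worms without the tagged protein or of other factors were not analysed here. The measured protein is the transgene's C-terminal fusion in whole animals, and the values do not separate cell types.

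RNase P is the RNA and protein enzyme that trims the 5′ ends of precursor transfer RNAs, and RNase MRP is its relative that acts in the processing of precursor ribosomal RNA. SRP binds signal peptides as they leave the ribosome and brings translation to the endoplasmic reticulum, with its RNA as the scaffold. In vertebrates these RNAs are made by RNA polymerase III, which reads the RNase P, RNase MRP and U6 genes from elements upstream of the start and transfer RNA genes from A and B boxes inside the gene.

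The sequence around the start of mrpr-1 is shown because the main summits in all 4 lists lay within it, together with that of yrn-1, the Y RNA gene, and of M163.13 and F54D8.7, which are small nuclear RNA (snRNA) genes with a thresholded peak at the gene. Each line runs from 80 bases before the annotated start to 20 bases into the gene, 5′ to 3′ on the gene strand, from the RefSeq genome WBcel235, the same sequence as ce11. Capitals mark the words TGTCNGNC and TATATA, which these genes share.
mrpr-1: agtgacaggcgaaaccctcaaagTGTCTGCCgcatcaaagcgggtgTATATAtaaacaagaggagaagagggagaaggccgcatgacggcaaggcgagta
yrn-1: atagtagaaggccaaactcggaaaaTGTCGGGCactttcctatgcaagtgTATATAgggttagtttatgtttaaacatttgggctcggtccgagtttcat
M163.13: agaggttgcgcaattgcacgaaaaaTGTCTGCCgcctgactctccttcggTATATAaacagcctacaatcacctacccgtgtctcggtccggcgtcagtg
F54D8.7: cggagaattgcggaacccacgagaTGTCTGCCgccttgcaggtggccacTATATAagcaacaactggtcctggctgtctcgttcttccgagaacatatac
The lines stand for chrII:7200153-7200252 on the plus strand, chrIV:7499428-7499527 on the plus strand, chrX:14476787-14476886 on the plus strand and chrIII:5080879-5080978 on the minus strand. The gene rpr-1 has the same pair of words, TGTCNGNC starting 55 bases and TATATA starting 30 bases before its start.

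The same window is shown for the 5 SRP RNA genes because srpr-2.1 resembles the other copies more in the gene than in the DNA before it. Capitals mark the bases just before the start that srpr-1.1, srpr-1.2, srpr-2.1 and srpr-2.2 have in common, and TATA where it begins 28 bases before the start.
srpr-2.1: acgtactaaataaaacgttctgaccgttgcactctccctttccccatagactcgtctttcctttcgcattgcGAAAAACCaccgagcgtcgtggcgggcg
srpr-2.2: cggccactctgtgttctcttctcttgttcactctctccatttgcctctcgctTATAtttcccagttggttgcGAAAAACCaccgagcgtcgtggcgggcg
srpr-1.1: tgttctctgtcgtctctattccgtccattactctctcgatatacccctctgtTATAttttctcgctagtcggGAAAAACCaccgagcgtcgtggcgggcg
srpr-1.2: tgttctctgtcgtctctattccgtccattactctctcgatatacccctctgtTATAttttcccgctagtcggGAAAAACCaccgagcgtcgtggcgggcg
srpr-3: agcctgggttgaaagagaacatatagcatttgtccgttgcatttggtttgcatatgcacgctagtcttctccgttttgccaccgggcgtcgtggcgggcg
In the same order the lines stand for chrIII:5211140-5211239 on the plus strand, chrIII:5031689-5031788 on the minus strand, chrIII:4379187-4379286 on the minus strand, chrIII:4369388-4369487 on the plus strand and chrV:9293613-9293712 on the minus strand. All 5 genes begin with nearly the same 20 bases, and srpr-2.1 is the only one of the 4 closest copies without TATA at 28 bases before the start.

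The 3 genes lie on 3 chromosomes and in different surroundings. rpr-1 (WBGene00045238) covers 253 bp at chrI:13463955-13464207 on the plus strand, inside intron 5 of the 10-exon transcript of ints-8, a gene of the Integrator complex that runs on the opposite strand. That intron is 2023 bp long, and the start of ints-8 is 6416 bp from the start of rpr-1. The nearest genes other than the host are the piRNA gene 21ur-15556, 3520 bp before rpr-1, and ndrr-1, 6384 bp after it. 21ur-15556 also lies within ints-8, and the nearest gene before rpr-1 outside the host is Y48G10A.6, 11109 bp away. mrpr-1 (WBGene00045095) covers 186 bp at chrII:7200233-7200418 on the plus strand in intergenic DNA. It lies 667 bp from the start of E04F6.6, which runs the other way, and ends 130 bp before pcrg-1, a relative of the Parkin coregulated gene. srpr-2.1 (WBGene00195016) covers 299 bp at chrIII:5211220-5211518 on the plus strand, also in intergenic DNA. Its neighbours are syx-16, a syntaxin gene 2110 bp upstream, and ZC155.4, whose 3′ end lies 262 bp downstream. The Ensembl and RefSeq annotations gave the same ends for all 3 genes. RefSeq names their products only as unclassified non-coding RNA and Ensembl classes them as ncRNA, so their assignment to the enzymes and to SRP rests on the gene names.

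The authors' scale for the signal of an interval is not known here, and intervals were ranked by it within each list. The thresholded list held the 501 peaks kept by the authors' test of replicate ranks. Their signals ran from 101.465 to 432, with a median of 122. They are the 501 highest of the pooled list, so being listed does not show that a peak had similar ranks in both replicates. Of them, 495 had a summit within 200 bp in both replicates. The 3 RNA genes had signals spread from near the top of the thresholded list to below its median. rpr-1 had the signal 318 and rank 6, mrpr-1 had 151 and rank 120, and srpr-2.1 had 113.5 and rank 328. The signal of srpr-2.1 was 1.12 times the lowest thresholded signal, that of mrpr-1 was 1.49 times and that of rpr-1 was 3.13 times. The first pooled interval outside the thresholded list had the signal 101.454.

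**Figure D1:**
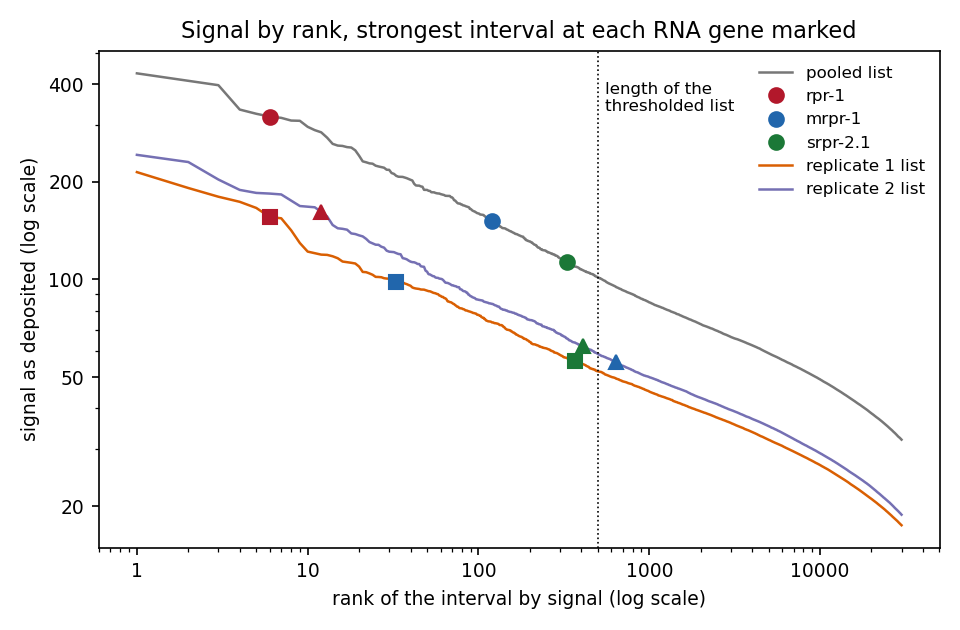
Deposited signal (vertical axis, log scale) against rank by signal (horizontal axis, log scale) for the pooled list and both replicate lists, with the strongest interval at each RNA gene marked as a circle in the pooled list, a square in replicate 1 and a triangle in replicate 2. rpr-1 stands at ranks 6, 6 and 12, srpr-2.1 at 328, 366 and 408, and mrpr-1 at 120, 33 and 637, where the dotted line marks the 501 intervals of the thresholded list.

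Around rpr-1 the signal in the replicates was 155.9 in replicate 1 and 161.7 in replicate 2, which gives 158.8 ± 4.11 (SD, n = 2). Both replicates placed rpr-1 among their strongest intervals, at rank 6 and rank 12. The coefficient of variation was 2.59%, and 31 of the 495 thresholded peaks with a match in both replicates had a smaller one. It was computed on the signals as deposited, which were higher in replicate 2 at most of these peaks. The ratio of replicate 2 to replicate 1 was 1.04 at rpr-1, against a median of 1.18, and 165 peaks (33.3%) had a lower ratio. The thresholded summit of rpr-1 lay 25 bp inside the gene, at the same base as in replicate 2 and 10 bp from the summit in replicate 1. The thresholded interval was 106 bp wide, at chrI:13463945-13464050, while 404 bp was the width of 96.0% of the thresholded intervals and of both replicate intervals at rpr-1. A second interval appeared in replicate 1 alone, with its summit 579 bp past the 3′ end of rpr-1, rank 25605 and signal 18.9. It was 1 of the weakest intervals in a list of 30000 that includes background by the authors' design.

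For mrpr-1 the signal was 98.5 in replicate 1 and 55.7 in replicate 2, which gives 77.1 ± 30.3 (SD, n = 2). Replicate 2 was thus the lower one at mrpr-1, with a ratio of replicate 2 to replicate 1 of 0.565. Over the 495 matched peaks the median of this ratio was 1.18, with quartiles of 0.948 and 1.48, and 12 peaks (2.42%) had a lower ratio than mrpr-1. mrpr-1 had rank 33 in replicate 1 and rank 637 in replicate 2, where it was outside the 501 strongest intervals. The summits nevertheless lay close together, 9 bp inside the gene in the thresholded list, 11 bp in replicate 1 and 16 bp in replicate 2. The thresholded interval covered chrII:7200040-7200443, which holds the whole gene but not the start of pcrg-1. A second pooled interval had its summit 23 bp past the 3′ end of mrpr-1, at rank 18394 with signal 39.9, and overlapped the main one.

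At srpr-2.1 the signal was 56.0 in replicate 1 and 62.3 in replicate 2, which gives 59.1 ± 4.46 (SD, n = 2). The ranks were 366 in replicate 1 and 408 in replicate 2, so srpr-2.1 was among the 501 strongest intervals of both. The replicates placed the summit less closely than at the other RNA genes, 252 bp inside the gene in replicate 1 and 178 bp in replicate 2, against 120 bp in the thresholded list. The gap of 74 bp between the replicates was larger than at 416 of the 495 matched peaks, whose median was 25 bp, whereas it was 10 bp at rpr-1 and 5 bp at mrpr-1. The thresholded interval was chrIII:5211138-5211541. A second pooled summit lay 30 bp past the 3′ end of srpr-2.1 at rank 22572 with signal 36.8, and a second summit in replicate 2 lay 669 bp past it at rank 16467 with signal 24.7.

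**Figure D2:**
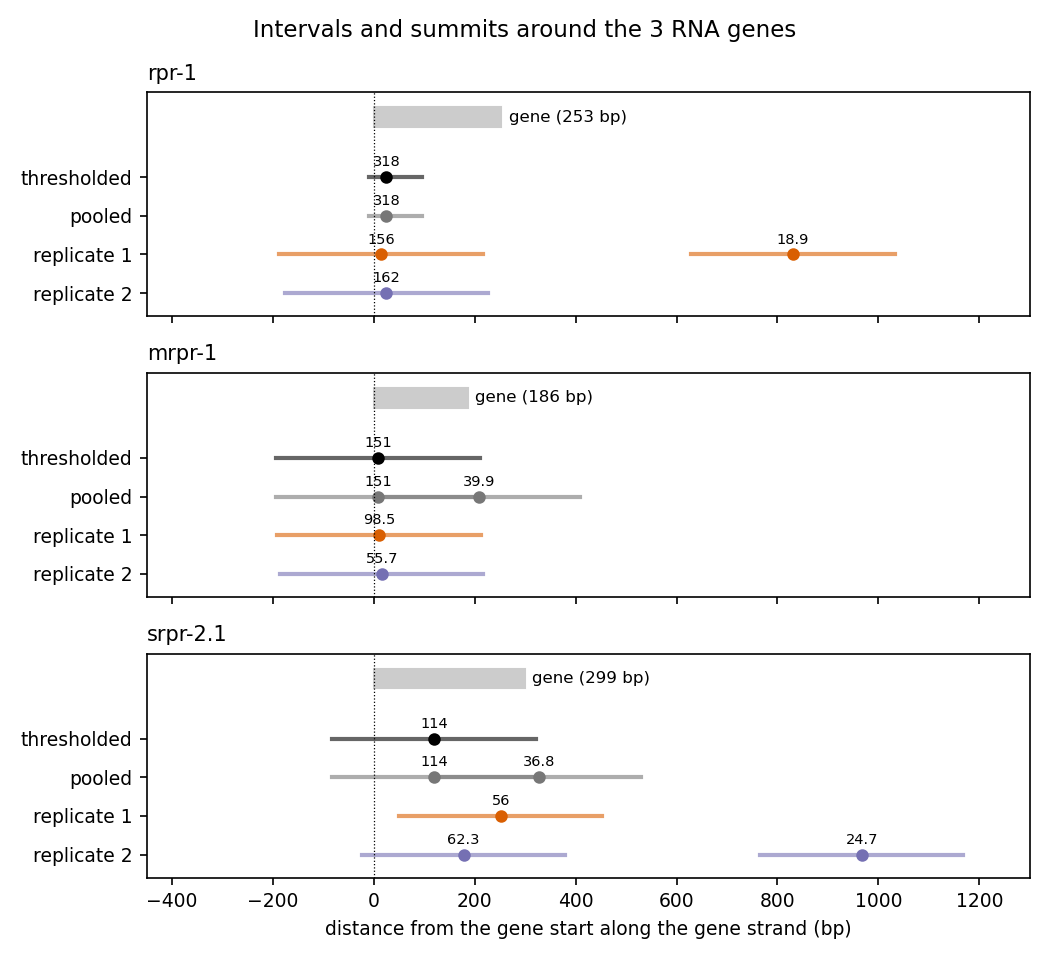
Intervals (lines) and summits (dots, with the deposited signal above) within 1000 bp of each RNA gene in the 4 lists, by distance in bp from the gene start along the gene strand; the grey bar is the gene. The main summits cluster within 25 bp of the start at rpr-1 and mrpr-1, and lie between 120 and 252 bp inside srpr-2.1.

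In the order of their means the signals were highest at rpr-1, then mrpr-1, then srpr-2.1. Both values of rpr-1 were above all values of the other RNA genes, whereas the values of mrpr-1, 55.7 and 98.5, enclosed those of srpr-2.1, 56.0 and 62.3, so these neighbours in the order did not differ beyond the spread of the replicates.

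No other thresholded summit lay within 10 kb of the 3 genes. How many of the other thresholded peaks are as far from their neighbours was not counted, so these distances do not set the 3 genes apart. The nearest other thresholded summit was 83310 bp from rpr-1, 16117 bp from mrpr-1 and 19129 bp from srpr-2.1. In the pooled list, which also holds weak intervals, the strongest summit from 1000 bp to 10 kb away had the signal 83.7 near rpr-1, 54.4 near mrpr-1 and 74.7 near srpr-2.1. The signal at the gene was 3.80 times that value for rpr-1, 2.77 times for mrpr-1 and 1.52 times for srpr-2.1. In replicate 1 the same ratio was 3.91 for rpr-1, 3.56 for mrpr-1 and 1.43 for srpr-2.1, and in replicate 2 it was 3.21, 1.59 and 1.28 for these genes. The ratio of mrpr-1 thus depended on the replicate, and in replicate 2 it was close to that of srpr-2.1.

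By the second deposited measure, the −log10 q-value, the order of the genes varied between lists. It was 2.22 for rpr-1, 1.77 for srpr-2.1 and 1.53 for mrpr-1 in the thresholded list. mrpr-1, which was stronger than srpr-2.1 by signal, ranked 491 of 501 thresholded peaks by q-value, whereas srpr-2.1 ranked 204 and rpr-1 shared rank 1. In replicate 1 it was 1.97 for both rpr-1 and mrpr-1, which shared rank 1, and 1.59 for srpr-2.1 at rank 416. In replicate 2 it was 2.00 for rpr-1, 1.80 for srpr-2.1 and 1.67 for mrpr-1, so srpr-2.1 stood above mrpr-1 there and below it in replicate 1.

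The peaks next to them in rank are each named by the gene with the nearest start, and these genes were of several kinds. That start can be far from the summit, which stood at -1095 bp for K02F3.13, -2556 bp for nhr-88 and 1757 bp for T23F11.2. The names thus do not assign the peaks to these genes. At ranks 4 and 5, just above rpr-1, stood the small nucleolar RNA (snoRNA) gene W03C9.9 and the non-coding RNA gene K02F3.13, and at ranks 7 and 8 the non-coding RNA gene R12E2.18 and mdt-26, a Mediator subunit gene. mrpr-1 stood below the non-coding RNA gene F16A11.9 and the nuclear receptor gene nhr-88, and above vps-37, of the sorting machinery of endosomes, and M57.t1, a transfer RNA gene for arginine. Around srpr-2.1 were protein-coding genes on both sides, nspc-17 and T23F11.2 above it, and dus-2 and W03H9.2 below it. In M57.t1, as in most matched peaks and unlike mrpr-1, replicate 2 was higher, with signals of 65.3 in replicate 1 and 84.7 in replicate 2.

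All 3 of the 3 chosen genes had a thresholded summit within 1000 bp, which the choice of genes fixes. Among all 46890 genes the percentage was 2.76, among the 7764 genes annotated as non-coding RNA it was 3.59, and among the 19973 protein-coding genes it was 3.14. Other short RNA genes had higher shares. A thresholded summit lay within 1000 bp of 190 of 612 transfer RNA genes (31.0%, exact 95% interval 27.4 to 34.9%), of 67 of 346 snoRNA genes (19.4%, 15.3 to 23.9%) and of 14 of 129 snRNA genes (10.9%, 6.06 to 17.5%). Genes of these classes often lie in clusters that share a peak, so the intervals cover counting error only.

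The place of the summit also differed among these classes, counted over the summits within 200 bp of a gene. The summits at rpr-1 and mrpr-1 lay 25 and 9 bp inside the gene. The median was 31 bp inside the gene for 151 summits at transfer RNA genes, 27 bp upstream for 58 summits at snoRNA genes and 178 bp after the start for 14 summits at snRNA genes. The quartiles for transfer RNA genes were -8.5 and 62.5 bp, a range that holds rpr-1 and mrpr-1 and not srpr-2.1 with its 120 bp. Those for snRNA genes were 3.25 and 196.25 bp, which hold all 3, and those for snoRNA genes were -48.5 and -9.5 bp, which hold none of them. No peak at a transfer RNA gene ranked above rpr-1, while 37 of the 151 ranked above mrpr-1 and 111 above srpr-2.1. Of the 58 snoRNA peaks, 3 ranked above rpr-1, 32 above mrpr-1 and 49 above srpr-2.1. Of the 14 snRNA peaks, 0 ranked above rpr-1, 7 above mrpr-1 and 11 above srpr-2.1. The strongest snRNA peak had rank 7 and is the peak named above by the nearer start of R12E2.18.

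srpr-2.1 is 1 of 5 SRP RNA genes, and the other 4 differed from it in signal, place or both. srpr-1.1, at chrIII:4378909-4379206 on the minus strand, had the only other thresholded peak, with rank 153 and signal 141, above srpr-2.1. Its replicate signals were 76.2 in replicate 1 and 68.1 in replicate 2, against 56.0 and 62.3 for srpr-2.1. The summit by srpr-1.1 was not in the gene, as at srpr-2.1, but 144 bp past its 3′ end, over the 3′ part of pals-26, which runs the other way and ends 1 bp from the end of srpr-1.1. Inside srpr-1.1 itself replicate 2 had a summit at 77 bp, with rank 11666 and signal 27.8.

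The remaining SRP RNA genes had no thresholded summit within 1000 bp. srpr-2.2, inside the kinesin gene klp-6, reached rank 5385 and signal 58.1 in the pooled list, with 47.7 in replicate 1 and 27.4 in replicate 2 at summits on different sides of the gene start. srpr-1.2, inside the choline kinase gene ckb-2, reached rank 6487 and 55.4, with 21.0 in replicate 1 and 33.9 in replicate 2, and its pooled summit lay 12 bp past its 3′ end. srpr-3 reached rank 9918 and 49.3, with 32.5 in replicate 1 and 18.8 in replicate 2. In both replicates all 3 of these genes were below srpr-2.1.

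**Figure D3:**
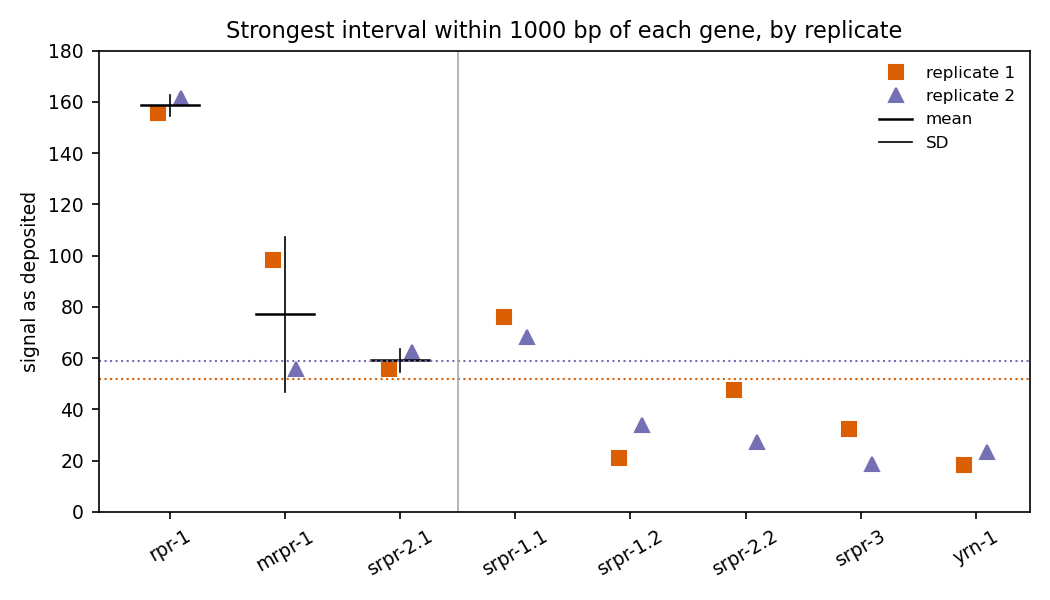
Deposited signal of the strongest interval within 1000 bp of each gene in replicate 1 (squares) and replicate 2 (triangles), with the mean and SD of the 2 replicates for rpr-1, mrpr-1 and srpr-2.1; for the genes right of the line the replicate summits can lie apart, so no mean is drawn. Dotted lines mark the weakest of the 501 strongest intervals, 52 in replicate 1 and 59 in replicate 2, which rpr-1, srpr-2.1 and srpr-1.1 exceed in both and mrpr-1 in replicate 1.

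The SRP RNA genes are similar enough for reads to fit several of them, and how such reads were treated is not stated in the sources. srpr-2.1 and srpr-2.2 had 99.0% of aligned bases in common and differed by 3 substitutions, T90C, G249A and G265A, in which the first letter is srpr-2.1, the number counts from 1 at its 5′ end and the last letter is srpr-2.2. These positions of srpr-2.1 are in capitals in the gene sequence, which covers chrIII:5211220-5211518 on the plus strand.
srpr-2.1 gene: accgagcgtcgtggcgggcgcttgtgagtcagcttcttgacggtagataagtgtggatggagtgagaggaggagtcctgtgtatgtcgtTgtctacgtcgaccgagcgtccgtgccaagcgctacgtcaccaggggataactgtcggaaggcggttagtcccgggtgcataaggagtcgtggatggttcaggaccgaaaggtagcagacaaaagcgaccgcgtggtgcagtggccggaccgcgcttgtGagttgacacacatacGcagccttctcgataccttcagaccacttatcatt
Identity to srpr-2.1 was 94.3% for srpr-1.1 and for srpr-1.2, and 82.0% for srpr-3. Upstream it was far lower, with 55.7% over the 100 bp before the start between srpr-2.1 and srpr-2.2, and between 52.0 and 52.9% for the other 3 genes. The pair srpr-1.1 and srpr-1.2 was alike upstream too, with 95% over these 100 bp.

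To measure how much of each gene is repeated, every word of 50 bases was looked up in the 6 nuclear chromosomes. Of such words, 61.2% in srpr-2.1 occurred elsewhere, as did 59.6% in srpr-2.2, 76.7% in srpr-1.1 and 58.8% in srpr-1.2. In the 200 bp before the start it was 0% for srpr-2.1 and srpr-2.2 and 10.6% for srpr-1.1 and srpr-1.2. In rpr-1, mrpr-1 and srpr-3, and in the 200 bp after each of the 5 SRP RNA genes, the share was 0%. The thresholded summit near srpr-1.1 lay in such unrepeated sequence, whereas that at srpr-2.1 lay inside the gene. The part of read placement in the signals of these 4 copies was not tested. The peaks at rpr-1 and mrpr-1 are in sequence with no such copies, and the genes had 49.8% identity to each other over 255 aligned columns.

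The gene sequence of mrpr-1, at chrII:7200233-7200418 on the plus strand, is shown with capitals from the start to 10 bases past its thresholded summit, because the summits of both replicates fall in this stretch.
mrpr-1 gene: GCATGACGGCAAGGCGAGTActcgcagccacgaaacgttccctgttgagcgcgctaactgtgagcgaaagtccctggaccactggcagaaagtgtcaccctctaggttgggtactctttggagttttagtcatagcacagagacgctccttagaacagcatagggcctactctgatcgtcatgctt

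Several sequence features that the choice of genes did not use were compared. The window ran from 250 bp before to 50 bp after the start, and both strands were searched. TGTCNGNC was in 5.70% of all 46890 windows, TATATA in 12.3% and TATAAA in 37.4%. TGTCNGNC and TATATA cannot overlap each other, while TATATA and TATAAA can share bases, as they do at mrpr-1. rpr-1 had TGTCNGNC at -55 and TATATA at -30, counted to the first base of the word. mrpr-1 had TGTCNGNC at -57, TATATA at -34 and -32, and TATAAA at -30. The window of srpr-2.1 held neither TGTCNGNC nor TATATA, and TATAAA was at -103 on its own strand and at -105 on the other.

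The pair of words at these places was rare. Both TGTCNGNC starting from -66 to -46 and TATA starting from -36 to -22 on the gene strand were present at 24 of the 46890 genes (0.0512%). The pair was chosen after the upstream sequences of rpr-1, mrpr-1 and yrn-1 had been seen, so its presence there was not a test. Of the 22 genes other than rpr-1 and mrpr-1, 16 are short non-coding RNA genes, namely 8 non-coding RNA, 6 snRNA, 1 snoRNA and 1 microRNA gene, and 4 are protein-coding and 2 piRNA genes. From the first base of 1 word to that of the other the distance was 25 bases at rpr-1 and 23 at mrpr-1. At mrpr-1 this counts the first TATA, at -34. Its other TATATA, at -32, starts 25 bases after TGTCNGNC at -57. The distance was 25 at 13 of these 16 genes and at none of the 6 protein-coding and piRNA genes. The 13 include yrn-1, from which the pair was chosen, and snRNA genes whose gene sequence occurs elsewhere in the genome. They are thus not all independent cases, and the spacing was not tested.

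A thresholded summit lay within 1000 bp of 5 of these 22 genes (22.7%), beside 2.76% of all genes and 10.9% of snRNA genes, but the 5 shared 3 peaks. Only 2 of the 22 had a summit within 200 bp, and each of these is an snRNA gene. At that reach the share was 1.74% of all genes and 10.1% of snRNA genes. M163.13, an snRNA gene, ranked 185 with signal 134 and a summit at 22 bp, and M163.12 and M163.15 lie near the same peak. In M163.13 the replicate signals were 70.3 in replicate 1 and 51.8 in replicate 2, the same order as at mrpr-1. F54D8.7, an snRNA gene, ranked 96 with signal 161 and a summit at -7 bp, and had 76.2 in replicate 1 and 84.3 in replicate 2. The peak near W01D2.9, at rank 38, lay at -230 bp from its start and 63 bp from the nearer start of another non-coding RNA gene, W01D2.7.

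The other 17 genes with the pair had no thresholded summit within 1000 bp. yrn-1, whose RNA belongs to the Y RNAs and whose gene lies inside F55G1.15 and F55G1.20, reached rank 15740 in the pooled list with signal 42.3, 20 bp inside the gene. In replicate 1 its interval at the gene had signal 17.7 and rank 29278, and replicate 2 had none at the gene. Among the snRNA genes, R07E5.16 reached pooled rank 1002, and F54C8.9, F54C8.10 and Y9C9A.111 had no pooled summit within 1000 bp. Their 50-base words occurred elsewhere in 100% of cases for R07E5.16, F54C8.9 and Y9C9A.111 and in 83.0% for F54C8.10, but also in 100% for F54D8.7, which had a thresholded peak. The share was 0% in yrn-1, so the pair of words was found with and without a strong interval in sequence that has no such copies.

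**Figure D4:**
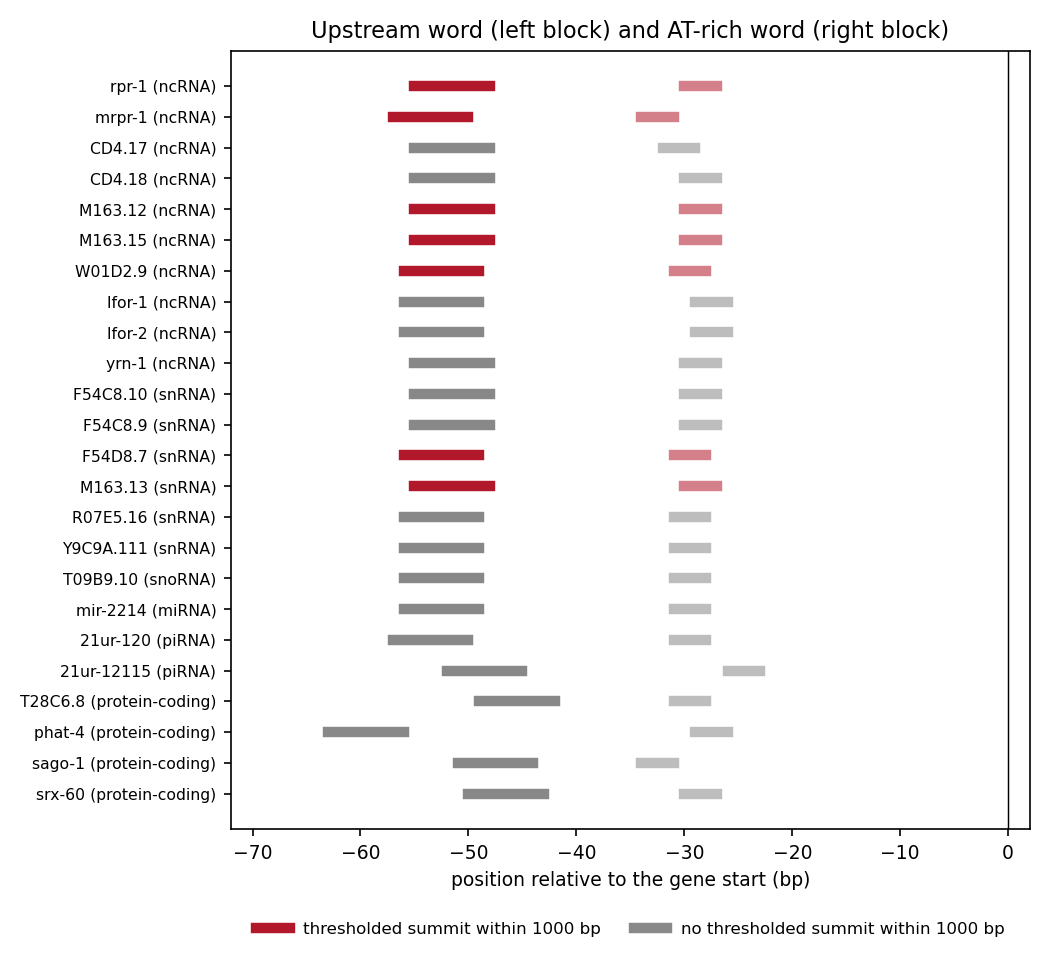
Positions, in bp before the gene start, of the upstream word (left block in each row) and of TATA (right block) at the 24 genes that have both, with rpr-1 and mrpr-1 at the top and genes with a thresholded summit within 1000 bp in red. The blocks stand at nearly the same places in the short RNA genes, whether or not a thresholded summit lies near, and are more scattered at the 4 protein-coding genes at the bottom.

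Neither consensus of the inner promoter of transfer RNA genes was found in the 3 genes or their windows. The A box was searched as TGGC, any pair of bases, then AGTGG, and the B box as GGTTCGA, any pair of bases, then CC, without mismatches and on both strands. The A box was in 0.467% and the B box in 0.906% of all windows. Inside the 612 transfer RNA genes themselves the A box was in 9.31% and the B box in 64.4%, so the A box as written misses most of these genes. The other 4 SRP RNA genes and yrn-1 also held neither.

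A run of T at the 3′ end, which ends transcription by RNA polymerase III, was looked for in the last 5 bases of each gene and the 10 after it. The longest run was 5 at rpr-1, 4 at mrpr-1 and 5 at srpr-2.1, and 4 or 5 at the other SRP RNA genes and yrn-1. Runs of at least 4 were found at 93.8% of transfer RNA genes, 38.2% of snoRNA genes, 21.7% of snRNA genes, 17.2% of non-coding RNA genes and 32.7% of protein-coding genes. The GC content of the 100 bp before the start was 69% at rpr-1, 48% at mrpr-1 and 43% at srpr-2.1, against medians of 38% for non-coding RNA genes, 42% for transfer RNA genes, 45% for snoRNA genes and 51% for snRNA genes. The windows of rpr-1 and mrpr-1 also had a run of 14 bases in common, at -180 and -175, of which 12 are A or T and which 8 of all windows hold. A single word of 6 bases, TATTTT, was common to all 3 windows on the gene strand, and 71.4% of all windows hold it.

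The protein partners of these RNAs were taken from the annotation as the genes whose product names RNase P, RNase MRP or SRP, or whose symbol starts with popl- or srpa-. Of these 16 genes, 7 belong to RNase P and RNase MRP and 9 to SRP, where mig-2, a gene of a Rac GTPase, was included only for the wording of its product. popl-7, whose product is named Protein kish, was included only for its symbol. It overlaps Y62E10A.24, of the p20 subunit, on the same strand. Of the 16, 1 had a thresholded summit within 1000 bp, beside 3.14% of protein-coding genes. It was F37F2.2, the gene of the 19 kDa SRP protein, at rank 435 with signal 105. Its replicate signals were 39.7 in replicate 1 and 61.8 in replicate 2, and its summit lay 17 bp past the 3′ end of the gene, 1913 bp from the start.

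None of the 7 RNase P and RNase MRP protein genes had a thresholded summit, and with 0 of 7 the exact 95% interval reaches 41.0%. In the pooled list with its weaker intervals 11 of the 16 (68.8%) had a summit within 1000 bp, against 70.7% of protein-coding genes. The next partners by pooled rank were srpa-72, of the 72 kDa SRP protein, at rank 978 with signal 85.6, popl-5, of the POP5 subunit, at rank 2501 with 69.4, and F25G6.9, of the 14 kDa SRP protein, at rank 2568 with 69.0. These summits lay 6796 bp from the start at srpa-72, 2316 bp at popl-5 and 2730 bp at F25G6.9. Those of srpa-72 and popl-5 were past the 3′ end of the gene.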

How the data were processed

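Interval lists in assembly ce11 were deposited for each replicate, for both pooled and for the peaks kept by the irreproducible discovery rate, which scores how reproducible ranks are across replicates. Per the text files deposited with the samples, the authors made each from the replicates' alignments and 1 control alignment shared by both, which was not analysed here. Aligner, peak caller, threshold, signal scale and read depth are not stated in the sources used, so means and ratios hold on the deposited scale. The authors deposited a signal per interval, a −log10 q-value and a summit offset. The signal ranked the intervals, and the thresholded list equals the 501 highest of the pooled list.

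Groups and replicate numbers came from the labels. Replicate values are those of the nearest summit within 200 bp of the thresholded summit. Genes came from Ensembl release 115 and symbols from RefSeq (46881 of 46890 genes), and sequences from the RefSeq genome of WBcel235. Coordinates count from 1. Shares have exact 95% binomial intervals (Clopper-Pearson). Python 3.11.15, numpy 2.4.6, pandas 2.3.3 and scipy 1.17.1 were used, and the window counts were tested on simulated data. No model or p-value was computed, because there was 1 group.

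The 3 genes and the lists were chosen with earlier results of these data known. Named by rule were the 3 genes, the other SRP RNA genes, yrn-1, host and neighbouring genes, partners with a thresholded summit and the 3 with the highest pooled ranks, and the genes next in rank. The names rrs-1 and U6, also in the rule, matched 0 genes in the annotation used. The word pair, the genes that hold it, pals-26, mig-2, W01D2.7 and the 50-base words were chosen after values were seen. The windows were computed from the genome because no promoter table was used.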

Additional observations from a re-analysis of the deposited data

How the results depend on the processing

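Of 55 recomputed values, not counting those that leave out a replicate, 35 stayed within 1 SD or within 1.5 times the count, 18 moved and 2 changed direction. With 2 replicates the SD is wide, so this count says little of stability. With the signal divided by the median of the 501 strongest intervals, the ratio of replicate 2 to replicate 1 fell below 1, to 0.892 at rpr-1 and 0.957 at srpr-2.1, and to 0.486 at mrpr-1. Among the 501 strongest intervals alone the pooled list kept 3 intervals near the genes and replicate 2 kept 2, without mrpr-1. The rank of rpr-1 by signal was 12 in replicate 2. That of mrpr-1 was 33 in replicate 1 and 637 in replicate 2, and that of srpr-2.1 was 366 in replicate 1 and 408 in replicate 2. By q-value in the pooled list rpr-1 shared rank 1, mrpr-1 had rank 546 and srpr-2.1 had rank 204. mrpr-1 was thus outside the first 501 of the pooled list by q-value, and had rank 491 within the thresholded list. Summits stood at 15 bp for rpr-1 in replicate 1, 16 bp for mrpr-1 in replicate 2, and 252 and 178 bp for srpr-2.1 in replicates 1 and 2. With the 250 strongest thresholded peaks 1.55% of genes had a summit, within 200 bp 1.74%, and by overlap 1.73%. No partner had a summit among the strongest intervals of replicate 1 (0). The word pair anywhere within 100 bp, chosen after seeing the data, gave 10 of 93 genes (10.8%), and the stricter TGTCNGCC gave 4 of 12 (33.3%). Leaving out a replicate gave 155.9 to 161.7 for rpr-1, 55.7 to 98.5 for mrpr-1 and 56.0 to 62.3 for srpr-2.1, with no spread left; with 2 replicates such a value always lies within 1 SD of the mean. Matching within 50 bp gave no value for srpr-2.1. No paired analysis was possible because there was 1 group. The cause was not tested.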
